A study of Mus musculus with 20 samples.

Results

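The aminoacyl-tRNA synthetases are the enzymes that attach each amino acid to its own transfer RNA. The members were taken from a list of 36 gene symbols. Of these, 35 have a row among the 25052 genes of the tables, 19 for cytosolic and 16 for mitochondrial enzymes, and Mars1 has none. The same gene, that of the cytosolic methionine enzyme, is in the tables under the symbol Mars (ENSMUSG00000040354.14). Since the list does not hold that symbol, Mars was kept out of every count and is given by its values only.

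The study sequenced RNA of frozen left ventricle from 4 groups, each with 5 male mice. All mice carried floxed alleles of Acacb, the gene of ACC2, an acetyl-CoA carboxylase whose product malonyl-CoA restrains fatty acid entry into mitochondria. The mice named iKO also carried MerCreMer, a Cre recombinase that tamoxifen activates, and the mice named WT in the labels did not. Both genotypes, when 8 weeks old, were given tamoxifen (20 mg/kg, 5 days). After 4 more weeks the mice began 16 weeks on either chow or HFD, the high-fat diet D12492 of Research Diets, which gives the groups WT chow, iKO chow, WT HFD and iKO HFD. No mice with MerCreMer and without floxed alleles are among the samples, so an effect of ACC2 loss and an effect of the Cre cannot be told apart, and the promoter that drives MerCreMer is not given in the sources used here. Values are FPKM, fragments counted per kilobase of transcript and scaled to the mapped total, which are per length and so can be compared between genes.

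Each synthetase joins one amino acid to its transfer RNAs with the energy of ATP, and the ribosome then reads the charged transfer RNAs. Cytosol and mitochondria charge separate pools of transfer RNA, mostly with enzymes from separate nuclear genes, while Gars and Kars each make both forms from one gene. Several cytosolic synthetases form a multi-synthetase complex on scaffold proteins. When amino acids run short or eIF2 is phosphorylated, the transcription factor ATF4 is translated and raises amino acid synthesis and transport genes and a set of cytosolic synthetases.

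A sequence motif was found at the starts of some of the cytosolic synthetases that are commonly listed as ATF4 targets, and it is shown because the comparisons below give these genes apart from the other cytosolic enzymes. The motif searched was TGATGNAA on either strand, which reads TTNCATCA on the other strand, the core of the composite site bound by ATF4 with a C/EBP partner. It was searched from 250 bases before to 50 bases after each RefSeq start on GRCm38.p6. It was present in 1304 of all 32851 RefSeq promoters (3.97%). Promoters were found for 26 of the 35 synthetases, and 5 of these held the motif (19.2%). This share counts genes with the motif in any of their promoters, whereas the 3.97% counts single promoters. All 5 were among the 7 commonly listed ATF4 targets with a promoter, the other 4 targets were not searched, and none was among the 19 other synthetases. A match is a run of letters and not a shown binding site. Windows of 4 of these promoters are given 5′ to 3′ in the sense of the gene, with the motif in capitals.
Gars, 30 to 23 bases before the start, chr6:55037960-55037989, + strand: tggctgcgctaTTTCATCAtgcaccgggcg
Iars, 8 to 15 bases after the start, chr13:49682126-49682155, + strand: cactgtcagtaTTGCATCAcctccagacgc
Tars, 15 to 8 bases before the start, chr15:11399655-11399684, - strand: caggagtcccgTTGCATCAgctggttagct
Yars, 4 to 11 bases after the start, chr4:129189895-129189924, + strand: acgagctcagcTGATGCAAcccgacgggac
In these 4 genes the motif lay within 30 bases of the start.

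Acacb stood at 34.9 to 41.92 FPKM in WT HFD libraries and at 37.42 to 41.07 in WT chow libraries, against 8.37 to 9.46 in iKO chow and 9.05 to 11.92 in iKO HFD, so that each library matched its genotype label. The depth inferred from the size of 1 read at low FPKM was 12.55 M assigned reads in RT7 and 31.9 M in RT18, the extremes. Mean depth was 21.3 M ± 1.22 (SD, n = 5) in WT chow, 19.9 ± 4.94 in iKO chow, 27.8 ± 3.33 in WT HFD and 23.1 ± 3.89 in iKO HFD. Cardiomyocyte markers were abundant in every library (summed FPKM of 8 genes 25901 to 37500), as the labelled ventricle would have them. Summed FPKM of 4 atrial muscle genes reached 691.4 in WT chow and 358.3 in iKO chow, in libraries RT1 and RT4, against at most 115.3 in any HFD library. Every chow library is numbered RT1 to RT10 and every HFD library RT11 to RT20, so diet and any difference tied to this numbering cannot be told apart.

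Most synthetases stood above the median gene of the ventricle. Their mean over the 20 libraries ran from 1.54 FPKM for Mars2, the mitochondrial methionine enzyme, to 55.3 FPKM for Lars2, the mitochondrial leucine enzyme. The median member stood at 12 FPKM, against 5.39 FPKM for the median of the 12775 genes tested, and 27 of the 35 members lay above that median. The cytosolic enzymes had a median of 12.6 FPKM, from 4.61 for Cars (cysteine) to 32.0 for Dars (aspartate). The mitochondrial enzymes had a median of 7.11 FPKM and spread more widely, since both the highest and the lowest member of the family are mitochondrial. After Lars2 the order of levels was Dars (32.0 FPKM), Kars (lysine, 30.5), Iars2 (mitochondrial isoleucine, 23.9), Nars (asparagine, 23.5), Fars2 (mitochondrial phenylalanine, 21.9) and Sars (serine, 21.9). Lars2 lay above every other member in each library, with 46.27 to 62.97 FPKM. Dars at 28.63 to 35.59 and Kars at 25.31 to 36.31 overlapped, and so did Iars2, Nars, Fars2 and Sars. Iars2 shares 2034 of its 8885 annotated exon bases with Rab3gap2, and Fars2 shares 501 of 5747 with Nrn1. Reads there could be assigned to either gene.

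**Figure D1:**
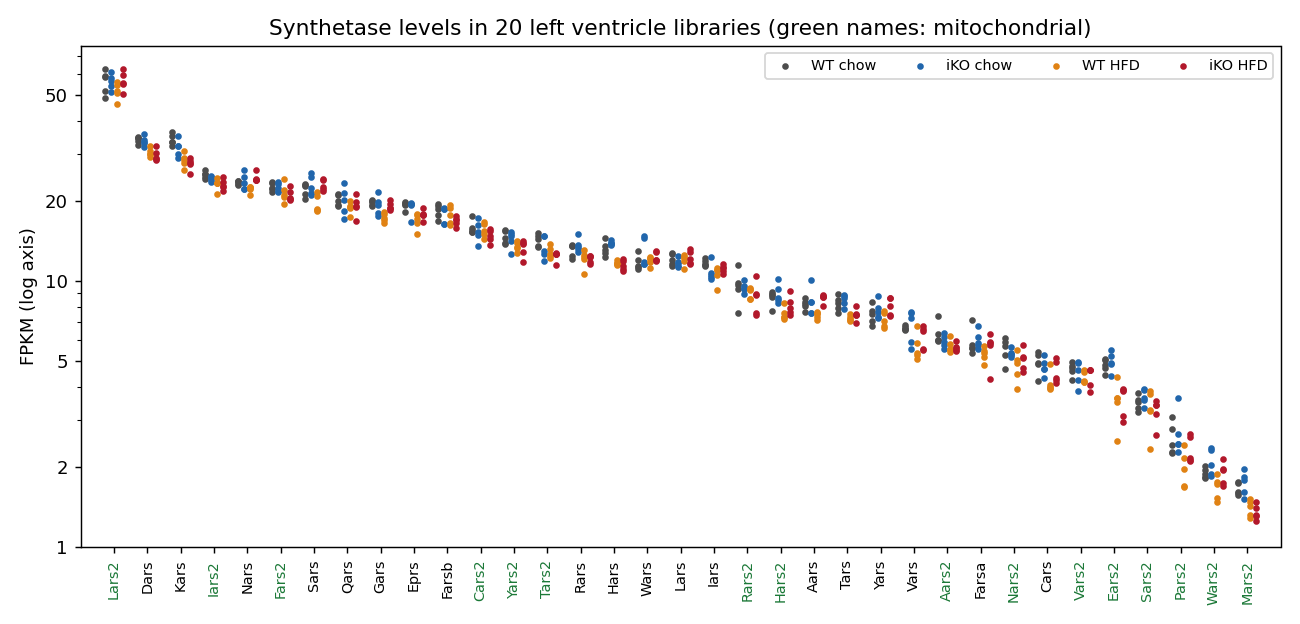
FPKM of each of the 35 synthetases (log axis) in the 20 libraries, coloured by group and ordered by mean level, with mitochondrial enzymes named in green. Lars2 stands apart at 46.27 to 62.97 FPKM, and in Ears2 all HFD libraries sit below all chow libraries.

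For 12 amino acids the members counted include 1 cytosolic and 1 mitochondrial gene. The order of the pair was the same in all 20 libraries for each of them. The cytosolic gene was higher in 7 pairs and the mitochondrial gene in 5. Among the first, Sars stood at 4.95 to 8.42 times Sars2, and Wars (tryptophan) at 5.12 to 7.9 times Wars2. Among the second, Lars stood at 0.184 to 0.259 times Lars2, Cars at 0.239 to 0.356 times Cars2, and Iars at 0.419 to 0.509 times Iars2. Tars2 and Yars2, for threonine and tyrosine, were the other 2 mitochondrial genes that exceeded their partners. Eprs, which makes one cytosolic protein for both glutamate and proline, stood at 3.39 to 6.86 times Ears2 and 5.41 to 10.5 times Pars2. Farsb and Farsa encode the β and α subunits of one cytosolic enzyme and differed in level, with a median ratio of Farsb to Farsa of 3.02 (2.61 to 3.98 over libraries).

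On chow no synthetase passed the test between iKO and WT. Values were compared as log2(FPKM + 1) with limma over all 20 libraries, adjusted by Benjamini-Hochberg over the 12775 genes tested, and called at an adjusted p under 0.05. That scale understates changes of low genes. All 35 members passed the filter on low values. None of them was called, against 1.06% of all genes (0.344% higher, 0.72% lower). None had an unadjusted p under 0.05, beside 1723 of the 12775 genes tested. Of the members 17 lay above 0, with a median log2 difference of -0.0032, beside 0.050 for all genes tested, of which 9041 lay above 0. After median-of-ratios scaling 7 lay above 0, with a median of -0.058. No member had groups without overlap, against 2.07% of all genes higher and 1.11% lower without overlap. The 95% intervals of the 35 differences ran from -0.22 at the lowest (Iars) to 0.25 at the highest (Wars), a range of 0.858 to 1.19 times on the FPKM + 1 scale.

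The 3 members with the smallest p on chow were Iars, Kars and Wars. Iars, the cytosolic isoleucine enzyme of the complex, read 11.54, 11.36, 11.62, 11.86 and 12.2 FPKM in WT chow (RT1, RT3, RT5, RT8, RT10) and 10.69, 12.27, 10.22, 10.55 and 10.38 in iKO chow (RT2, RT4, RT6, RT7, RT9). Library RT4 was the highest of all 10, and the other 4 iKO libraries lay below every WT library. The difference was -0.11 (SE 0.05, limma adjusted p = 0.391). Kars read 32.22, 33.23, 33.35, 36.31 and 35.0 FPKM in WT chow and 32.24, 32.32, 30.04, 35.15 and 29.14 in iKO chow, with overlapping groups and a difference of -0.10 (SE 0.05, limma adjusted p = 0.436). Wars read 11.29, 12.01, 11.07, 11.43 and 12.98 FPKM in WT chow and 11.6, 14.81, 11.63, 14.51 and 11.82 in iKO chow. Its 2 highest libraries, RT4 and RT7, are both iKO, and the groups overlapped (difference 0.12, SE 0.06, limma adjusted p = 0.446; 0.053 without RT1 and RT4).

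**Figure D2:**
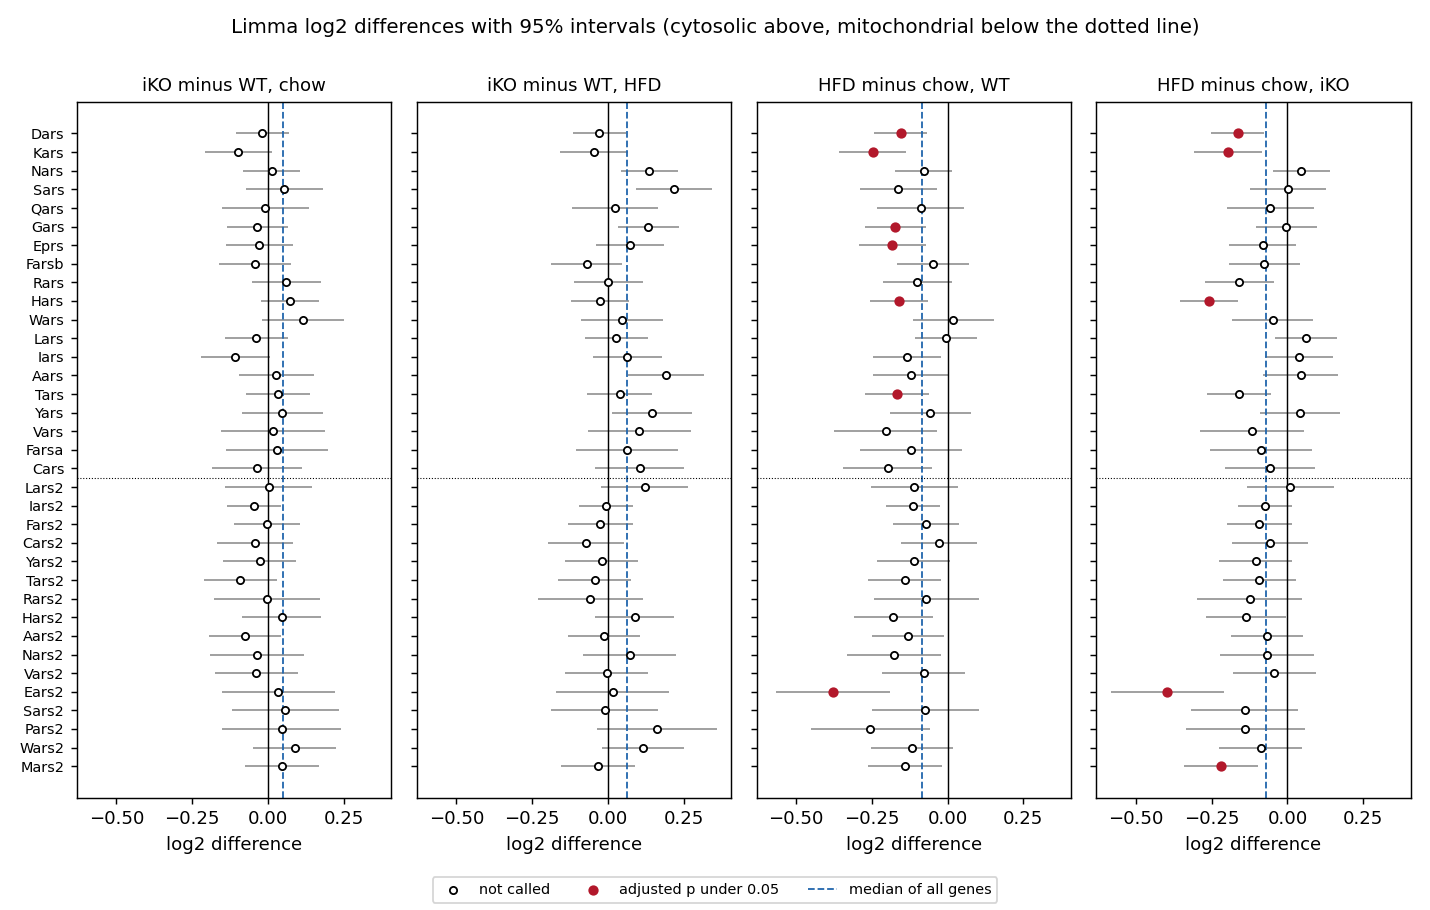
Limma log2 differences with 95% intervals for the 35 synthetases in the 4 pairwise comparisons, with cytosolic genes above and mitochondrial genes below the dotted line, called members in red and the median of all genes tested as a dashed line. No member is called between genotypes, 7 are called lower on HFD in WT and 5 in iKO, and Ears2 lies farthest from 0 in both diet panels.

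On HFD no synthetase passed the test between genotypes either. The cytosolic members commonly listed as ATF4 targets all lay above 0, as did 9509 of the 12775 genes tested. This class was set with earlier results of these data known, so its directions are described and not tested. None of the 35 was called by limma, against 0.172% of all genes (0.102% higher, 0.0705% lower). An unadjusted p under 0.05 was found for 5 of the 35, beside 1947 of the 12775 genes tested. Those 5 were Sars, Aars, Nars, Gars and Yars, named here after their values were seen. All 11 of the commonly listed ATF4 targets were above 0, with a median log2 difference of 0.10, and 8 of them lay above the median of all genes tested, 0.063. Of the other 8 cytosolic members 4 were above 0 (median -0.012), and of the 16 mitochondrial members 6 (median -0.0073). These directions moved with the scaling. With FPKM divided by median-of-ratios size factors, 6 of the 11 were above 0 (median 0.042, all genes 0.0037), and with upper-quartile scaling 8 of the 11 (median 0.057, all genes 0.018).

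Fibroblast and macrophage markers also had mostly positive genotype differences, with overlapping summed levels and no call. Among all 12775 genes tested, 9509 were above 0 on HFD (median 0.063) and 9041 on chow (median 0.050). An unadjusted p under 0.05 was found for 1947 of them on HFD and 1723 on chow. Of 11 fibroblast markers 10 were above 0 on HFD (median 0.31, 5 with an unadjusted p under 0.05) and all 11 on chow (median 0.44, 2). Their summed FPKM was 678.6 to 780.2 in WT HFD and 669.1 to 1374 in iKO HFD, and 663.9 to 800.1 in WT chow and 732.2 to 1543 in iKO chow. All 9 macrophage markers were above 0 on both diets, with medians of 0.18 on HFD and 0.23 on chow, and their summed FPKM was 145.3 to 189.5 in WT HFD and 144.5 to 233.5 in iKO HFD, and 188.7 to 216.1 in WT chow and 189.9 to 294.2 in iKO chow. No marker of either list was at 0 throughout a group. Limma called none of these 20 fibroblast and macrophage markers between genotypes on either diet, against 1.06% of all genes on chow and 0.172% on HFD. At these shares 20 genes would rarely hold a call. The part of the markers in the synthetase values was not tested. All 8 endothelium markers were above 0 on HFD and 6 on chow, and of 7 smooth muscle and pericyte markers 7 and 4. Of 8 cardiomyocyte markers 3 were above 0 on HFD and 4 on chow, and of 5 erythroid markers 0 and 5.

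Sars showed the smallest p on HFD. It read 21.68, 18.4, 18.63, 20.93 and 18.56 FPKM in WT HFD (RT12, RT14, RT16, RT18, RT19) and 22.59, 22.24, 24.23, 21.8 and 24.06 in iKO HFD (RT11, RT13, RT15, RT17, RT20). Every iKO library lay above every WT library. The log2 difference was 0.22 (SE 0.06, limma adjusted p = 0.145). Aars, the cytosolic alanine enzyme, read 7.58, 7.13, 7.62, 7.49 and 7.33 FPKM in WT HFD and 8.08, 8.71, 8.79, 8.69 and 8.88 in iKO HFD, again without overlap (0.19, SE 0.06, limma adjusted p = 0.184). Aars shares 1326 of its 9282 annotated exon bases with Exosc6, and the authors' counting may split such reads. Nars, the cytosolic asparagine enzyme, read 22.52, 22.63, 22.25, 22.47 and 21.05 FPKM in WT HFD and 24.05, 24.02, 26.09, 24.29 and 24.03 in iKO HFD (0.14, SE 0.05, limma adjusted p = 0.205). With Gars, 4 members did not overlap between the genotypes on HFD, all higher in iKO, against 2.79% of all genes higher without overlap and 0.446% lower. Mars, the gene kept off the list, stood at 10.3 FPKM ± 0.7 (SD, n = 5) in WT HFD and 11.3 ± 0.786 in iKO HFD (0.12, SE 0.06, limma adjusted p = 0.372).

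**Figure D3:**
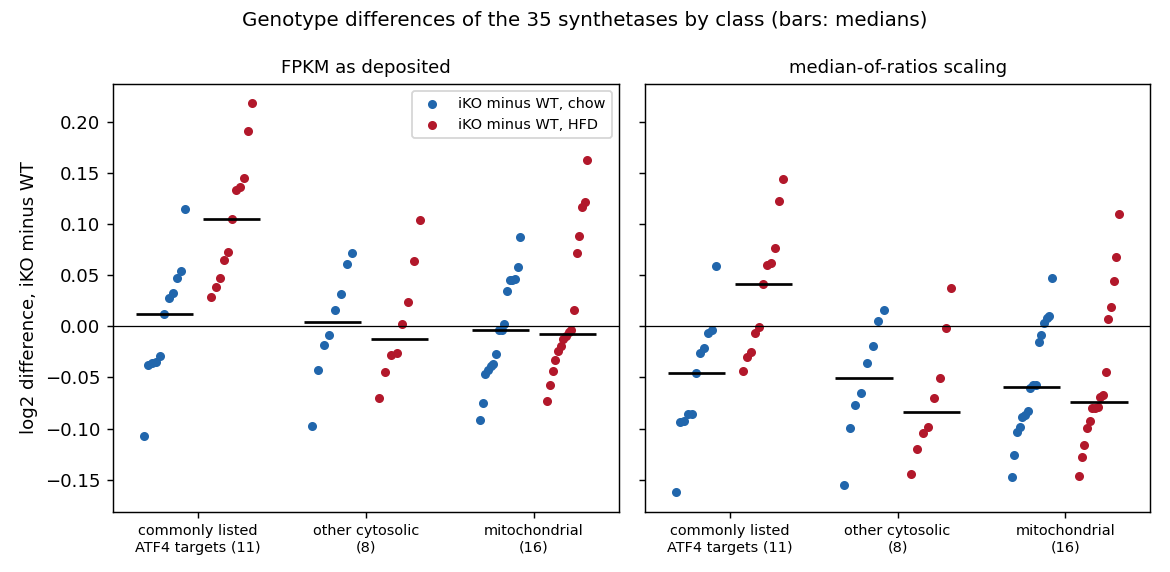
Genotype differences (iKO minus WT, log2) of the 35 synthetases on chow (blue) and on HFD (red), by class, with FPKM as deposited at left and after median-of-ratios scaling at right. Each point is a gene and each bar a median. On HFD the commonly listed ATF4 targets have a median of 0.10 at left and 0.042 at right, the other cytosolic enzymes -0.012 and -0.084, and the mitochondrial enzymes -0.0073 and -0.074.

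Outside the synthetases, several genes of the ATF4 list were higher in iKO than in WT on HFD. Of its 22 tested members 4 rose in iKO against WT on HFD and none fell, against 0.102% of all genes higher and 0.0705% lower, with a median of 0.25, beside 0.063 for all genes. Mthfd2, the mitochondrial folate enzyme, rose from 1.83 FPKM ± 0.368 (SD, n = 5) to 5.68 ± 1.82 (log2 difference 1.19, SE 0.18, limma adjusted p = 0.00632). Asns, the asparagine synthetase, which makes the amino acid and is no transfer RNA enzyme, rose from 0.966 FPKM ± 0.238 to 1.95 ± 0.353 (limma adjusted p = 0.0331). Trib3, a pseudokinase that feeds back on ATF4, rose from 1.59 FPKM ± 0.189 to 2.51 ± 0.374 (limma adjusted p = 0.0343), and Atf5, a transcription factor of the same family, from 16.7 ± 1.5 to 27.4 ± 4.19 (limma adjusted p = 0.000984). Atf4 itself stood at 32.4 FPKM ± 3.41 in WT HFD and 39.6 ± 3.1 in iKO HFD and was not called (0.28, SE 0.08, limma adjusted p = 0.164). On chow none of the 22 was called, and 1 had an unadjusted p under 0.05, beside 1723 of the 12775 genes tested. The 4 calls on HFD held under both other scalings. With 1 library left out 2 to 4 were called, with 2 without RT12, RT13, RT14, RT15, RT16 or RT18, and a fit of the HFD libraries alone called Atf5 only. ATF4 is regulated mainly in translation, which these RNA values do not measure.

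In WT mice 7 synthetases fell on HFD and none rose. They are Kars, Ears2, Dars, Gars, Hars, Eprs and Tars, 6 cytosolic enzymes and 1 mitochondrial, against 7.27% of all genes called lower and 0.767% higher (8.04% in all). Of the 35 members 34 lay below 0, with a median of -0.12, beside -0.084 for all genes tested, and 10 members lay above that median. Among all 12775 genes tested, 2738 lay above 0. The 7 called values lay below the median of all genes too, but they were selected for lying far below 0, so this adds no evidence. The summed FPKM of the cytosolic members went from 294.2 ± 2.22 (SD, n = 5) on chow to 267.0 ± 6.49 on HFD, and that of the mitochondrial members without Lars2 from 141.8 ± 4.51 to 129.8 ± 3.9. The scaling decided these calls. With median-of-ratios or upper-quartile scaling no synthetase was called, 11 or 8 of the 35 lay above 0, and the split of all genes called higher and lower went from 98 and 929 to 180 and 152, or 148 and 205. Leaving out 1 library at a time left 3 to 7 synthetases called, with 3 without RT1, RT5, RT12, RT14 or RT19 and 4 without RT3, RT8 or RT18.

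Kars, the lysine enzyme of the complex, also makes the mitochondrial form (chromosome 8, 111993443 to 112011323 on GRCm38). It read 32.22, 33.23, 33.35, 36.31 and 35.0 FPKM in WT chow and 27.76, 26.25, 30.93, 29.09 and 28.51 in WT HFD. The groups did not overlap, and Kars fell by 0.25 (SE 0.05, limma adjusted p = 0.00768). Ears2, the mitochondrial glutamate enzyme (chromosome 7, 122037213 to 122067263), read 4.45, 4.82, 5.08, 4.72 and 5.07 FPKM in WT chow and 3.51, 2.5, 3.62, 4.35 and 3.63 in WT HFD. It fell by 0.38 (SE 0.09, limma adjusted p = 0.0127) to 0.729 times its chow mean, and the lowest chow library lay just above the highest HFD library, RT18. Ears2 shares 89 exon bases with Ubfd1. The calls of Kars and Ears2 in WT held with each of the 20 libraries left out, and both were lost with median-of-ratios scaling (adjusted p = 0.183 and 0.0832) and with upper-quartile scaling (0.116 and 0.0655).

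Dars, the aspartate enzyme of the complex, read 34.42, 32.4, 33.67, 34.53 and 34.87 FPKM in WT chow and 30.11, 32.09, 30.75, 30.06 and 29.18 in WT HFD (-0.15, SE 0.04, limma adjusted p = 0.0280). Eprs, the joined glutamate and proline enzyme of the complex, read 19.64, 18.14, 19.25, 19.55 and 19.86 FPKM in WT chow and 16.6, 17.15, 17.79, 17.88 and 15.06 in WT HFD (-0.18, SE 0.05, limma adjusted p = 0.0380). In both genes every HFD library lay below every chow library. Gars, the glycine enzyme of cytosol and mitochondria, read 20.15, 19.98, 19.84, 19.4 and 19.24 FPKM in WT chow and 17.29, 16.53, 17.93, 18.2 and 17.04 in WT HFD (-0.17, SE 0.05, limma adjusted p = 0.0322). Hars, the cytosolic histidine enzyme, read 12.7, 14.52, 13.5, 13.04 and 12.32 FPKM in WT chow and 11.66, 11.54, 12.04, 11.57 and 11.68 in WT HFD (-0.16, SE 0.05, limma adjusted p = 0.0339). Hars and Hars2 share 195 exon bases, so reads there could be assigned to either. Tars, the cytosolic threonine enzyme, read 8.98, 8.27, 7.95, 7.61 and 8.52 FPKM in WT chow and 7.53, 7.09, 7.3, 7.19 and 7.13 in WT HFD (-0.17, SE 0.05, limma adjusted p = 0.0479). Tars was the call nearest the threshold, and it held in 5 of the 20 fits with 1 library left out. The calls of Dars, Eprs, Gars and Hars were each lost without any 1 of several libraries. Dars was lost without RT1, RT8, RT10, RT12, RT18 or RT19, and Eprs without RT1, RT5, RT8, RT10, RT12, RT14 or RT19. Gars was lost without RT1, RT3, RT5, RT12, RT14 or RT19, and Hars without RT3, RT5, RT8, RT12, RT14 or RT18. Their differences stayed below 0 in all 28 alternative fits. Without RT1 and RT4 together 5 synthetases were called in WT, and Tars, Dars and Eprs were not among them (adjusted p = 0.12, 0.0619 and 0.0805). Counting overlap alone, 11 members lay lower on HFD without overlap, against 9.99% of all genes, and none lay higher (0.783%).

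In iKO mice 5 synthetases fell on HFD and none rose. They are Hars, Ears2, Dars, Mars2 and Kars, against 8.36% of all genes called lower and 1.65% higher (10% in all). Of the 35 members 28 lay below 0, with a median of -0.081, beside -0.072 for all genes tested. Among all 12775 genes tested, 3352 lay above 0. The cytosolic sum went from 293.4 ± 14.4 (SD, n = 5) on chow to 277.8 ± 9.22 on HFD. With either other scaling 2 synthetases were called, Hars and Ears2, 18 or 13 of the 35 lay above 0, and the split of all genes went from 211 higher and 1068 lower to 324 and 241 with median-of-ratios and 288 and 306 with upper-quartile scaling. A fit of the iKO libraries alone also called 2. Leaving out 1 library at a time left 3 to 6 called, with 3 without RT7.

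Hars read 13.91, 13.95, 13.74, 14.3 and 13.7 FPKM in iKO chow and 11.06, 11.44, 12.14, 10.87 and 11.89 in iKO HFD. All 5 HFD libraries lay well below the lowest chow library. Hars fell by 0.26 (SE 0.05, limma adjusted p = 0.000913). Ears2 read 5.21, 4.87, 4.9, 5.5 and 4.4 FPKM in iKO chow and 2.96, 3.12, 3.91, 3.85 and 3.92 in iKO HFD, without overlap, and fell by 0.40 (SE 0.09, limma adjusted p = 0.00728) to 0.714 times its chow mean. The calls of Hars and Ears2 in iKO held in all 28 alternative fits. Mars2 (chromosome 1, 55237177 to 55248470), the member with the lowest level, read 1.61, 1.51, 1.79, 1.96 and 1.84 FPKM in iKO chow and 1.25, 1.31, 1.32, 1.4 and 1.48 in iKO HFD. It fell by 0.22 (SE 0.06, limma adjusted p = 0.0199), and the groups did not overlap.

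Dars and Kars fell in iKO as well. Dars read 32.0, 33.32, 35.59, 33.01 and 33.79 FPKM in iKO chow and 28.63, 29.13, 30.34, 32.26 and 28.86 in iKO HFD, where RT17 reached into the chow range (-0.16, SE 0.04, limma adjusted p = 0.0161). Kars read 32.24, 32.32, 30.04, 35.15 and 29.14 FPKM in iKO chow and 28.4, 25.31, 27.52, 29.0 and 27.77 in iKO HFD (-0.20, SE 0.05, limma adjusted p = 0.0242). With 1 library left out, Dars in iKO was called each time, Kars was lost without RT2, RT4, RT7 or RT13, and Mars2 without RT7 or RT11. The Kars groups lay close, 29.14 against 29.0 FPKM, and without RT1 and RT4 together Kars was not called (adjusted p = 0.0563). In all 5 members lay lower on HFD without overlap, against 6.41% of all genes, and none lay higher (1.39%).

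**Figure D4:**
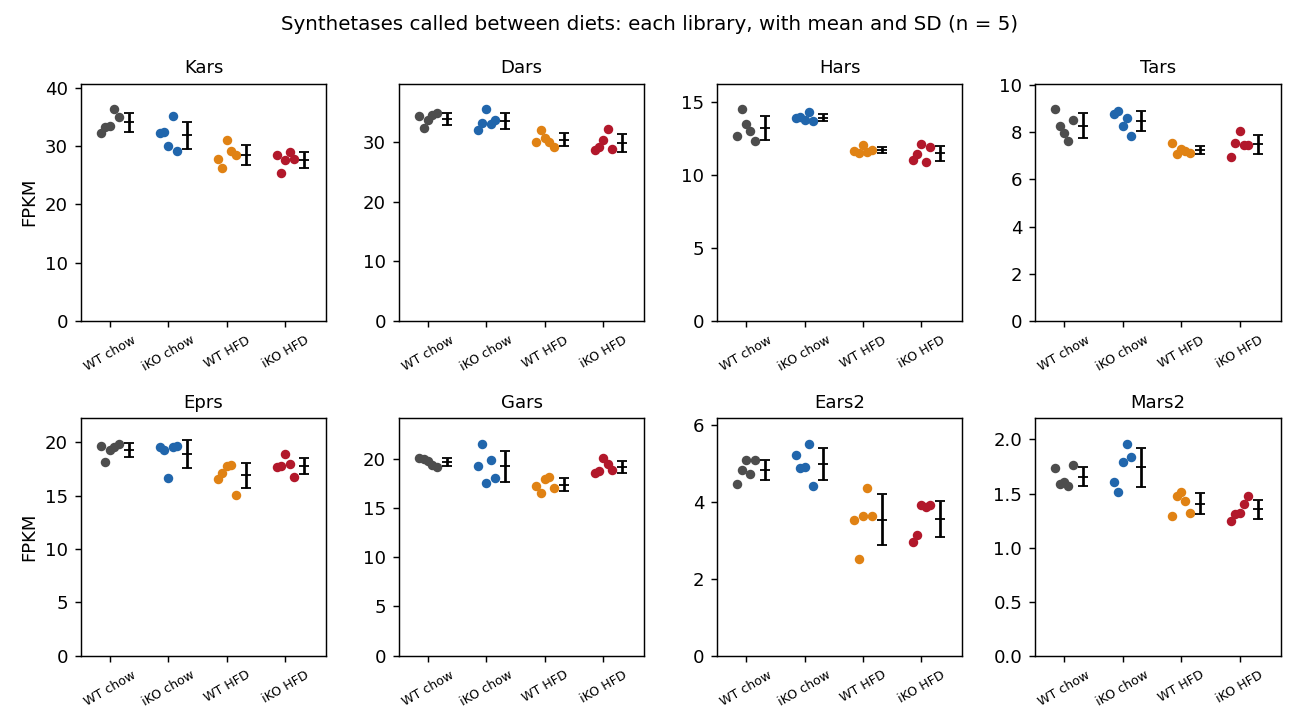
FPKM of the 8 synthetases called between diets in at least 1 genotype, in each of 20 libraries by group, with mean and SD (n = 5) at the right of each group. Ears2 shows a gap between chow and HFD in both genotypes, and the Gars means are 19.7 and 17.4 FPKM on chow and HFD in WT and 19.3 and 19.2 in iKO.

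The diet values of the commonly listed ATF4 targets, a class set with earlier results of these data known, are set side by side for the genotypes. In WT 10 of the 11 lay below 0 (median -0.13) and 3 fell, Eprs, Gars and Tars, against 7.27% of all genes called lower. In iKO 6 of the 11 lay above 0 (median 0.0020) and none was called, against 8.36% of all genes called lower. At that share 11 genes would often hold no call. Among all 12775 genes tested, 2738 lay above 0 in WT and 3352 in iKO. After median-of-ratios scaling 4 of the 11 lay above 0 in WT and 10 in iKO, and the WT calls of Eprs, Gars and Tars were lost. The other 8 cytosolic members all lay below 0 in both genotypes, with a median of -0.14 in each. In each genotype 3 were called, Dars, Hars and Kars. After median-of-ratios scaling 2 of the 8 lay above 0 in each, and only the Hars call in iKO was left. The difference between the diet effects was tested directly as the interaction of genotype and diet. It called none of the 35, against 0.0313% of all genes, and the smallest adjusted p was 0.999. Of the 11 ATF4 targets 10 had a positive interaction (median 0.12, all genes 0.014), and 9 after either other scaling, against 4 of 8 other cytosolic members (median 0.011) and 10 of 16 mitochondrial members (median 0.033). Among all 12775 genes tested, 7074 had a positive interaction. These contrasts share the same libraries, so the diet and genotype values are not separate lines of evidence.

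Gars had the smallest interaction p. Its values on chow were 17.58 to 21.55 FPKM in iKO, a range that held all 5 WT chow libraries, while on HFD the 5 iKO libraries (18.58, 18.83, 20.14, 19.47 and 18.9 FPKM) lay above the 5 WT libraries (16.53 to 18.2). The interaction was 0.17 (SE 0.07, limma adjusted p = 0.999). Iars read 10.55, 10.99, 11.2, 11.01 and 9.26 FPKM in WT HFD and 11.31, 10.9, 11.57, 10.64 and 11.16 in iKO HFD, with overlap, and its interaction was 0.17 (SE 0.08). For Nars the interaction was 0.12 (SE 0.06), and its chow values lay at 23.0 to 23.83 FPKM in WT and 22.18 to 26.25 in iKO. Neither passed the limma test (adjusted p = 0.999 for both). Without RT1 and RT4 the 3 interactions were 0.20, 0.22 and 0.16, and none was called (adjusted p of 0.827 for Gars and for Iars, and 0.892 for Nars).

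Genes that work beside the synthetases were read from the same fit. Of all genes tested, 7.27% were called lower on HFD in WT and 8.36% in iKO. On chow 0.344% were called higher in iKO. Lists of 3 to 7 genes are too short to be set against such shares. The 3 scaffold proteins of the complex were called in no comparison. Of 5 mitochondrial elongation factors, Tufm, which delivers charged transfer RNA to the mitochondrial ribosome, fell on HFD in WT from 104.4 FPKM to 92.1 (-0.18, SE 0.04, limma adjusted p = 0.0122) and in iKO from 102.6 to 91.8 (-0.16, limma adjusted p = 0.0213), and the others were not called. Of 4 genes of mitochondrial amidation and formylation, Gatc, a subunit of the amidotransferase that makes mitochondrial glutaminyl-tRNA, fell on HFD in iKO (-0.24, SE 0.06, limma adjusted p = 0.00944). Of 5 editing and proofreading genes Dtd1, which removes D-amino acids from transfer RNA, fell on HFD in iKO (-0.23, limma adjusted p = 0.0377). Of 6 cytosolic elongation factors Eef1b2 rose in iKO on chow from 133.3 FPKM to 157.0 (0.24, limma adjusted p = 0.0310). None of the 7 tested genes of the eIF2 kinase and phosphatase list was called. Under both other scalings Tufm, Gatc, Dtd1 and Eef1b2 were not called, and Dtd1 and Eef1b2 were also lost without RT1 and RT4. Tufm in iKO was lost without RT7, RT11 or RT13, Dtd1 without RT2, RT4, RT7, RT11, RT13 or RT20, and Eef1b2 without RT3, RT4, RT5, RT6 or RT7. Of the 22 ATF4 list genes, 1 rose on HFD in WT (Mthfd2, 0.62, limma adjusted p = 0.0402), against 0.767% of all genes, and 6 in iKO, against 1.65%. The 6 were Mthfd2, Atf5, Asns, Trib3, Phgdh, which starts serine synthesis (0.33, limma adjusted p = 0.0258), and Cebpg, a partner of ATF4 (0.25, limma adjusted p = 0.0487). Mthfd2, Atf5, Asns and Trib3 were called in iKO with each library left out, Phgdh was lost without RT6, RT13, RT15 or RT20, and Cebpg was the call most often lost. The Mthfd2 call in WT was lost without RT3, RT5, RT8, RT10, RT12, RT18 or RT19.

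Other measures moved with diet beside the synthetases. Summed FPKM of the 8 cardiomyocyte markers lay at 33367 to 34660 in WT chow and 25901 to 32362 in WT HFD, and at 33102 to 37500 in iKO chow and 27464 to 29220 in iKO HFD, with 6 of 8 markers called lower in WT, against 7.27% of all genes, and 5 of 8 in iKO, against 8.36%. The 15 mitochondrially encoded genes took 33.0% ± 0.4 (SD, n = 5) of all FPKM in WT chow and 35.1% ± 0.879 in WT HFD, and 32.0% ± 1.83 and 35.1% ± 0.521 in iKO. Their part in the diet results was not tested. Fewer cells of a type and less RNA per cell cannot be told apart in bulk tissue.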

How the data were processed

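Left ventricle RNA of 20 mice was sequenced as poly(A) libraries with single-end reads of 100 nt, per the labels' protocols. The authors deposited FPKM per gene in 1 table for each library. Bowtie2, RSEM, DESeq2 and build mm9 are named, without versions, per the submitters' processing notes. Of the 25052 gene IDs, 24938 are in GENCODE M21 (GRCm38), which conflicts with mm9, so coordinates are GRCm38 by ID. Whether counting used strand is not given in the sources used here. The 12775 genes that reached 0.5 FPKM in 5 or more libraries were tested as log2(FPKM + 1) with limma 3.58.1 in R 4.3.3, using trend and robust moderation, 4 group means over 20 libraries and Benjamini-Hochberg adjustment. The spread between mice of a group sets the p-values. Members and lists were chosen with earlier results of these data known. Values in every library are given for each called member, or for the 3 of smallest p where a contrast calls none. From 7 pathway lists, Atf4, Atf5, Asns, Mthfd2 and Trib3 were named in any case, with up to 4 called genes per list and contrast. Phgdh and Cebpg, named beyond this, were chosen after their values were seen. Alternatives changed pseudocount, filter, scaling, moderation, weights and libraries. Depth was estimated from the step of 1 read in genes of 130 to 450 nt. The windows of 1 further promoter are not reported here.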

Additional observations from a re-analysis of the deposited data

Results flagged for a closer look

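Among 13 named synthetases, 52 groups of 5 libraries were examined for a library far from the rest, and 6 held one, where chance gives about 1 in 20. Eprs in iKO chow had its lowest library, RT6, at 16.62 FPKM, with the others at 19.25 to 19.62. Iars in iKO chow had its highest, RT4, at 12.27 (others 10.22 to 10.69). Nars stood out in both HFD groups, with RT19 low in WT at 21.05 (others 22.25 to 22.63) and RT15 high in iKO at 26.09 (others 24.02 to 24.29). Aars in iKO HFD had its lowest library, RT11, at 8.08 (others 8.69 to 8.88), and Hars in WT HFD its highest, RT16, at 12.04 (others 11.54 to 11.68).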

How the results depend on the processing

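Counts of called synthetases were recomputed under 8 other settings and with each of 20 libraries left out. For the genotype on chow, the genotype on HFD and the interaction the count was 0 in every fit run. For the diet in WT, 7 called members became 4 with no filter on low values, 0 with median-of-ratios scaling and 0 with upper-quartile scaling, and 3 to 7 with 1 library left out. For the diet in iKO, 5 became 2 with median-of-ratios scaling, 2 with upper-quartile scaling and 2 in a fit of the compared groups, and 3 to 6 with 1 library left out. The cause was not tested. No named difference changed sign, and 80 single-gene values fell short of the threshold against 505 that stayed on their side. All 80 came from called differences, while the 505 include differences that were never called. No paired analysis was possible because the groups share no replicate numbers. The deposited FPKM hold no counts, so what depth limits for each gene is not known.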
